A study of Mus musculus with 8 samples.

Results

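The regions described here are the H3K4me3 regions of the replication-dependent histone gene clusters of the mouse, Hist1 on chromosome 13 and Hist2 on chromosome 3, in testes with and without H3f3b. H3K4me3, trimethylation of lysine 4 of histone H3, was mapped by ChIP-seq in testis tissue from adult mice of the C57BL/6 strain. The genotypes were H3f3b WT/WT (WT) and H3f3b null (KO), with no other allele or treatment named in the labels. H3f3b is 1 of the genes for H3.3, the H3 variant that is placed in chromatin outside replication. Each genotype had 2 H3K4me3 libraries, called WT 66, WT 74, KO 67 and KO 73 after the numbers in their labels, and the 4 input libraries of the series were not analysed here. The members were all deposited regions that overlap 3 fixed mm9 windows, chr13:21.75-22.20 Mb, chr13:23.60-24.10 Mb and chr3:95.98-96.12 Mb. Overlapping or touching rows of the 4 lists were merged into union regions. This gave 42 members, 16 in the first chromosome 13 window, 20 in the second and 6 in the chromosome 3 window, of 16000 autosomal and 16519 union regions in all. The windows were set by position alone, and no annotation in mm9 was at hand, so no region was assigned to a gene and neither the cluster names nor the tissue could be checked against marker genes here. The labels do not say that each library came from a separate animal, so the p-values here reflect library-to-library spread, part or all of which may be technical.

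Replication-dependent histone genes code for the bulk of the core histones H2A, H2B, H3 and H4 and for the linker histone H1. They are transcribed in S phase, have no introns, and give messages that end in a stem-loop instead of a poly(A) tail. They lie in dense clusters where H2A and H2B genes often stand head to head and share 1 promoter stretch. In the testis, some members of the clusters are germ cell variants: Hist1h1t codes for the linker histone of spermatocytes, and Hist1h2ba and Hist1h2aa code for the testis forms of H2B and H2A. H3.3, unlike the clustered H3 genes, is made outside S phase and comes from genes elsewhere in the genome. H3K4me3 marks the start sites of active genes.

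The RefSeq gene table for GRCm38, a later build than that of the region lists, was used for names and gene order only. It held 65 genes with an older symbol starting with Hist1h or Hist2h in 3 blocks. The pseudogene Hist1h2al lay apart from them. The block on chromosome 13 with Hist1h1t had 31 histone genes, from Hist1h4h to Hist1h2aa, with 5 H1, 6 H2A, 7 H2B, 7 H3 and 6 H4 genes. In table order the pair Hist1h2ba and Hist1h2aa closed this block, and Trim38 and the transporter genes Slc17a1 to Slc17a4 lay between them and the rest of the block. The other block on chromosome 13 had 24 histone genes, from Hist1h2bl to Hist1h2bj, and 31 tRNA genes between its ends. It held 1 H1, 8 H2A, 8 H2B, 2 H3 and 5 H4 genes, of which the H2A gene Hist1h2aj is a pseudogene. The Hist2 block on chromosome 3 had 10 genes, 4 H2A, 2 H2B, 3 H3 and 1 H4, and no H1 gene. In the order of histone genes alone, H2A and H2B genes were neighbours 9 times in the block without Hist1h1t. They were neighbours 5 times in the block with it and 1 time in Hist2. Other genes that may lie between them were skipped, and the 9 include the pseudogene Hist1h2aj beside Hist1h2bm.

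Promoters of these genes show the sequence features that the clusters share. Of the 65 genes, 59 had a promoter in the RefSeq table (250 bases before to 50 bases after the gene start, GRCm38), 60 promoters in all. The testis variants are printed beside replication-dependent genes of the same family, because they sit in the same cluster and differ in when they are used. Capitals mark 3 motifs found by exact match on either strand: the CCAAT box, the TATAA box and the octamer ATTTGCAT known from H2B promoters. A match on the other strand shows as its reverse complement, and no marked match overlaps another. Hist1h1t, Hist1h1a and Hist1h2bb are on chromosome 13, plus strand, Hist1h2ba is on chromosome 13, minus strand, and Hist2h2bb is on chromosome 3, plus strand, each printed in the direction of its gene.
Hist1h1t: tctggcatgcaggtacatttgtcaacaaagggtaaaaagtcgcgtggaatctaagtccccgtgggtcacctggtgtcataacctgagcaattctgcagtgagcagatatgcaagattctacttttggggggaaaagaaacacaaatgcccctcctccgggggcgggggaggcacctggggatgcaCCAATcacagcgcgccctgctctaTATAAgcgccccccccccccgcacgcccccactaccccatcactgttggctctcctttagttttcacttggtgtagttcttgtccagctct
Hist1h1a: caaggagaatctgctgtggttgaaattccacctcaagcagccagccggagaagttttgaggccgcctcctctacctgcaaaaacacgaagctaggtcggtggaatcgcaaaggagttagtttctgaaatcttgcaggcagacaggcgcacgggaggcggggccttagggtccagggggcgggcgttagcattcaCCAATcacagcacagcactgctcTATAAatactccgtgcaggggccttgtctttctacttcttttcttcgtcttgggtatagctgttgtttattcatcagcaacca
Hist1h2ba: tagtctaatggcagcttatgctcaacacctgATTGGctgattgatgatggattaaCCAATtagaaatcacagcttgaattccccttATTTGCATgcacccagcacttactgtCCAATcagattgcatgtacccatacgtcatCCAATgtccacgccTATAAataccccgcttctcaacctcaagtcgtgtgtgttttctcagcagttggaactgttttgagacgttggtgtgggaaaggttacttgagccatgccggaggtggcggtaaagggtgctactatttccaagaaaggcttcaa
Hist1h2bb: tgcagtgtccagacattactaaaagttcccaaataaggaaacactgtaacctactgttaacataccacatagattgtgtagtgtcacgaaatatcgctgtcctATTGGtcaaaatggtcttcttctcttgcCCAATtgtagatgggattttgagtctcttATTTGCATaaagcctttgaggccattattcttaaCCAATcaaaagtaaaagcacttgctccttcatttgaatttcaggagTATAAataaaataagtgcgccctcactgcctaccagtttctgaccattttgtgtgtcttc
Hist2h2bb: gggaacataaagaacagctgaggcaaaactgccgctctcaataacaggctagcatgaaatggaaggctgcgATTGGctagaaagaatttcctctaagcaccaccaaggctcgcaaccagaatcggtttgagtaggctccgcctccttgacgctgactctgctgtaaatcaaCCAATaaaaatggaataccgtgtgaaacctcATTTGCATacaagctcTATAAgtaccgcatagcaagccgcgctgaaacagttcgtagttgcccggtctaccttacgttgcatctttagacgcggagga

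The testis linker histone gene Hist1h1t and the replication-dependent H1 gene Hist1h1a had the same short order of motifs, a CCAAT followed by a TATAA. In Hist1h1t the CCAAT began 65 bases and the TATAA 41 bases before the gene start, and in Hist1h1a the distances were 56 and 33 bases. Each of the 3 printed H2B promoters held the octamer, 164 bases before the start in the testis gene Hist1h2ba, 90 bases in Hist1h2bb and 48 bases in Hist2h2bb. The TATAA began 94, 10 and 32 bases before the start in the same order. The annotated starts thus stand at unlike distances from the TATAA, and the octamer distances cannot be compared between these genes. Hist1h2ba had 4 CCAAT matches, Hist1h2bb 3 and Hist2h2bb 2. The promoters of Hist1h2ba and Hist1h2aa, on opposite strands, overlapped by 220 bases, so motifs in that stretch are counted for both genes.

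Over the clusters, CCAAT was in 52 of 60 histone promoters, 86.7%, against 37.4% of all 32851 promoters of the table. TATAA was in 78.3% against 24.9%, and the octamer in 21.7% against 1.74%. The families differed. All 6 H1, 17 H2A, 16 H2B and 10 H3 promoters held a CCAAT, but only 3 of 11 H4 promoters did, while 10 of 11 H4 promoters held a TATAA. The octamer was in 7 of 16 H2B and 6 of 17 H2A promoters and in none of the H1, H3 or H4 promoters. Some matches may be counted for both genes of an H2A and H2B neighbour pair. Hist1h2ah and Hist1h2bk, Hist1h2ae and Hist1h2bg, Hist1h2ab and Hist1h2bb, and Hist1h2aa and Hist1h2ba each held the octamer. Overlap was measured only for the last of these pairs. These counts describe letters in the windows printed and were not tied to the H3K4me3 regions. Some promoters of the clusters share sequence: 14 of 60 histone promoters, 23.3%, held a stretch of 36 bases that occurs in a promoter elsewhere, against 9.87% of all promoters. The shared part ranged widely, from 1.13% of the stretches in Hist1h4i to 100% in 2 promoters, Hist1h2bq and Hist1h2br, of the block without Hist1h1t. In Hist2 the promoters with such a stretch were Hist2h3c1 and Hist2h3c2 (80.8% of their stretches) and Hist2h2aa1 and Hist2h2aa2 (69.4%). How reads that match several places were treated is not given in the sources used here, and the part of such reads in the values below was not tested.

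The histone windows were crowded with H3K4me3 regions. They held 38.5 union regions per Mb, against 6.64 per Mb over the autosomes (from the first to the last union region of each). The median distance between neighbouring members was 6.13 kb, and 48.8 kb between neighbouring autosomal regions. In WT 66, 4.73% of the windows was covered and 0.897% of the autosomes. The other libraries also had the larger share in the windows, 4.16% and 0.863% in WT 74, 2.73% and 0.591% in KO 67, and 3.63% and 0.655% in KO 73.

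In the windows together, H3K4me3 covered 51.57 kb in WT 66, 45.4 kb in WT 74, 29.75 kb in KO 67 and 39.5 kb in KO 73. Each KO library was below each WT library. The WT mean of 48.5 ± 4.37 kb stood against a KO mean of 34.6 ± 6.93 kb (SD, n = 2 per genotype), which is 28.5% lower. Over all autosomal regions the KO mean was 29.2% lower, so the shortfall was close to that of the autosomes in the means only. The KO libraries differed: the windows were 38.6% lower without KO 73 and 18.4% lower without KO 67. Autosomal covered length was 14233 kb in KO 67 and 15766 kb in KO 73, against a WT mean of 21197 kb. The 2-sided exact permutation test gave p = 0.33, the smallest p that 2 against 2 libraries allow, so no difference between covered lengths could reach significance. In whole testis, fewer cells with the mark and less of the mark per cell cannot be told apart.

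The shortfall is given window by window, and the order of the windows was not stable across settings. In the first window the covered length was 17.56 and 15.5 kb in WT and 8.16 and 10.8 kb in KO, 42.6% lower. In the second it was 18.5 and 17.6 kb in WT and 11.0 and 16.6 kb in KO, 23.7% lower. On chromosome 3 it was 15.5 and 12.3 kb in WT and 10.6 and 12.15 kb in KO, 18.1% lower. KO lay below WT in each window without overlap, with exact p = 0.33 each, and the difference between windows was not tested. With the lowest 25% of scores dropped, the second window had the largest shortfall, 40.0% against 29.3% in the first and 19.3% on chromosome 3. When each list was held to the length of the shortest by score, the genotypes no longer separated fully in the second window (10.1% lower, exact p = 0.667) or on chromosome 3 (11.3% lower, exact p = 0.667). Without KO 67 the second window had the smallest shortfall, 8.15% against 12.5% on chromosome 3. In the pair WT 74 and KO 73, chosen after the data had been seen, KO 73 was 30.2% lower in the first window (-4662 bp). It was 5.82% lower in the second (-1026 bp) and 1.28% lower on chromosome 3 (-157 bp). Autosomal covered length was 20794 kb in WT 74 and 15766 kb in KO 73. The KO minus WT difference in the second window was -4283.5 bp, and -1474.5 bp without KO 67 and -7092.5 bp without KO 73. On chromosome 3 it was -2516 bp, and -931 bp without WT 66 and -4101 bp without WT 74. For the windows together it was -13832.5 bp, and -8933 bp without KO 67 and -5644.5 bp when each list was held to the length of the shortest by score, while the first window then gave -2884.5 bp in place of -7033 bp.

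**Figure D1:**
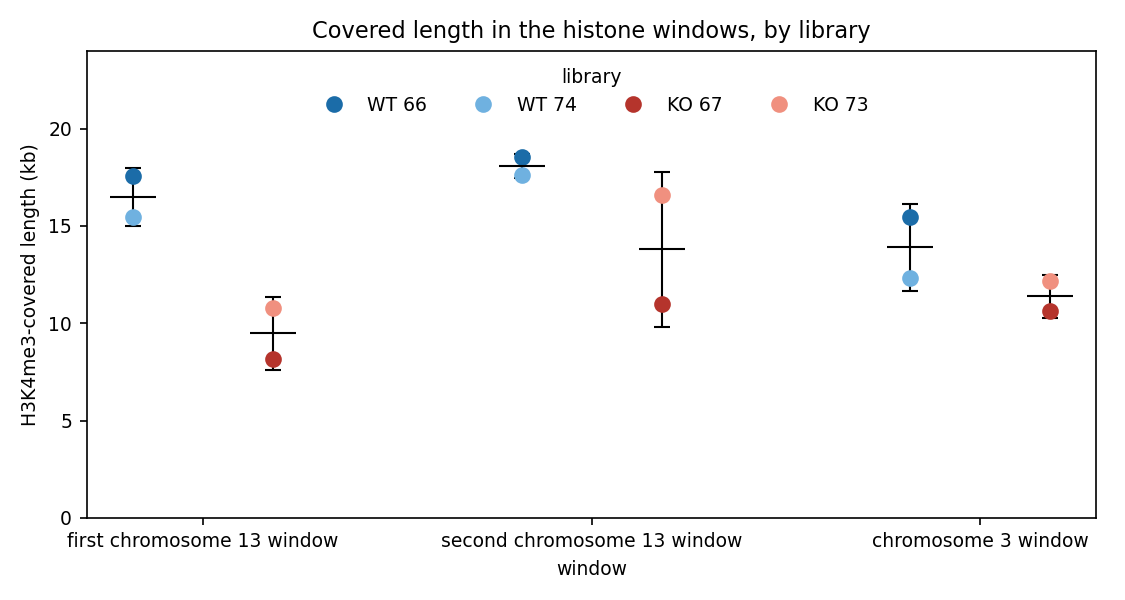
Covered length (kb, vertical axis) in each histone window for the 4 libraries. Points are libraries, horizontal bars are genotype means and error bars are SD (n = 2); both KO points lie below both WT points in every window, and KO 73 is close to WT 74 in the second chromosome 13 window and on chromosome 3.

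Counted by base pair, the sequence marked in WT was covered in KO to a share below that of the autosomes in KO 67 and above it in KO 73. Of the 40.3 kb covered in both WT libraries, KO 67 covered 66.4% and KO 73 79.0%, against 72.9% and 75.7% over the autosomes. In the first chromosome 13 window the shares were 50.7% in KO 67 and 72.5% in KO 73. They were 68.2% and 84.9% in the second, and 82.0% and 79.5% on chromosome 3. KO 67 covered the smaller share in both chromosome 13 windows and the larger on chromosome 3.

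**Figure D2:**
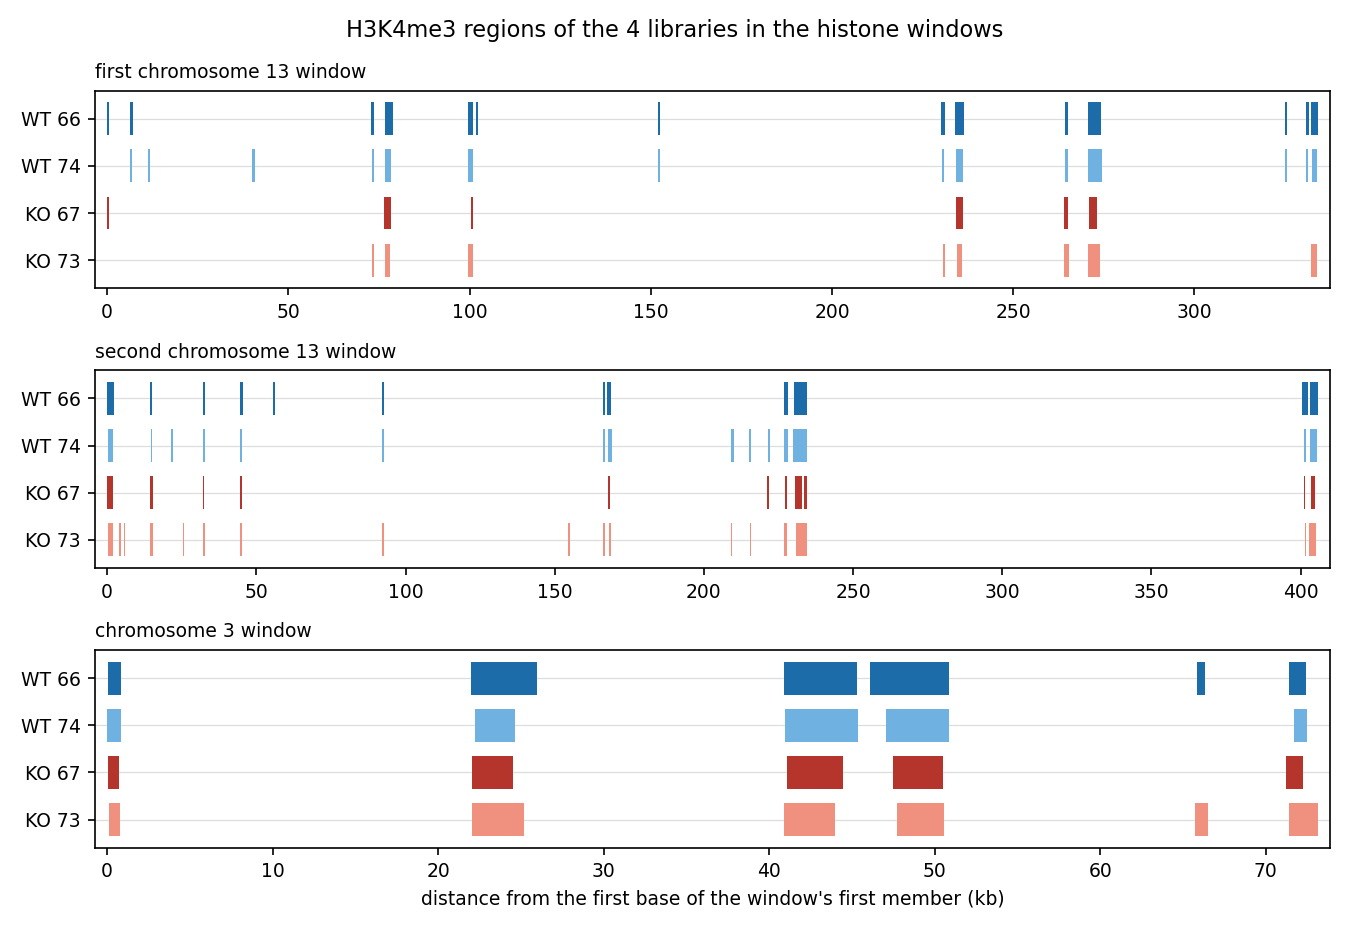
The H3K4me3 regions of each library (rows) along the 3 windows, as distance in kb from the first base of the first member of the window. Bars are deposited regions drawn to scale; the chromosome 3 window holds 3 wide regions in every library, while the chromosome 13 windows hold many narrow regions, of which KO 67 has the fewest.

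The Hist2 window on chromosome 3 held the strongest regions of the clusters. Its 3 widest members made up 84.9% and 86.9% of the window's covered length in WT and 84.3% and 74.2% in KO. The region chr3:96041856-96046325 covered 4422 bp (WT 66), 4439 bp (WT 74), 3371 bp (KO 67) and 3071 bp (KO 73). No KO value reached a WT value, and the authors' score placed it at the 99.1, 99.2, 99.1 and 97.6 percentile of the 4 lists in the same order. The log2 change, KO minus WT, came to -0.46 ± 0.11 (SE, adjusted p = 0.101 by limma). The neighbour chr3:96047058-96051822 spanned 4743 and 3818 bp in the WT lists against 3074 and 2793 bp in the KO lists, again without overlap, with a log2 change of -0.54 ± 0.15 (limma adjusted p = 0.127). The difference in length of these 2 regions lay mostly on opposite sides. In the first, the right edge lay 1133 bp further in and the left edge 76.5 bp further in (KO mean against WT mean), and in the second the left edge lay 1022 bp and the right edge 325 bp further in. The WT libraries themselves differed widely at that left edge, which was at 96047058 in WT 66 and 96048005 in WT 74. It was at 96048410 in KO 67 and 96048697 in KO 73.

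The third wide region of the window, chr3:96022933-96026903, did not separate the genotypes. It covered 3971 bp (WT 66), 2443 bp (WT 74), 2489 bp (KO 67) and 3149 bp (KO 73), so WT 74 was the shortest (log2 change -0.15 ± 0.26, limma adjusted p = 0.785). The region chr3:96072187-96074091 had the highest log2 change among the members, from WT lengths of 1037 and 784 bp to KO lengths of 1040 and 1725 bp. Both KO values exceeded both WT values, KO 67 by only 3 bp over WT 66, and the log2 change of 0.57 ± 0.30 did not pass (limma adjusted p = 0.369). A weak region, chr3:96000955-96001801, spanned 803 and 823 bp in the WT lists against 628 and 631 bp in the KO lists. The remaining one, chr3:96066697-96067477, was found in WT 66 (501 bp) and KO 73 (781 bp) only.

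The second chromosome 13 window, which by its rule holds the testis variants Hist1h1t, Hist1h2ba and Hist1h2aa, combined 1 broad region with many narrow ones. The broad region, chr13:23851683-23856322, covered 4337 bp (WT 66), 4640 bp (WT 74), 3263 bp (KO 67) and 3682 bp (KO 73). The genotypes did not overlap (log2 change -0.37 ± 0.12, limma adjusted p = 0.185), and in KO 67 it was called as 2 separate rows. The first member of the window, chr13:23621665-23623871, spanned 2207 and 1828 bp in the WT lists against 1945 and 1743 bp in the KO lists, with overlap (log2 change -0.13 ± 0.15, limma adjusted p = 0.678).

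The last pair of regions of this window stood 165.95 kb after the broad region. The larger, chr13:24024449-24027363, covered 2622 bp (WT 66), 2240 bp (WT 74), 1329 bp (KO 67) and 2523 bp (KO 73). KO 73 lay between the WT values and only KO 67 was low (log2 change -0.40 ± 0.31, limma adjusted p = 0.523). The smaller, chr13:24022273-24024185, covered 1913 bp in WT 66 and 501 bp in each of the other libraries, which is the smallest width that any of the lists contains. Its log2 change of -0.97 ± 0.62 was the lowest among the shared members and came from WT 66 alone (limma adjusted p = 0.454).

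A pair of mid-width regions of this window had KO values well below their WT values. The region chr13:23789318-23790728 spanned 1372 and 1225 bp in the WT lists against 633 and 793 bp in the KO lists, and its log2 change was -0.87 ± 0.21. Its limma adjusted p of 0.0969 was the lowest of all members, above the threshold of 0.05. The region chr13:23848406-23849856 spanned 1448 and 1317 bp in the WT lists against 771 and 904 bp in the KO lists (-0.73 ± 0.19 in log2 length, adjusted p of 0.112 by limma). The genotypes did not overlap in either. The region chr13:23636096-23636893 went the other way, with WT lengths of 763 and 501 bp and KO lengths of 781 and 783 bp (0.34 ± 0.27 in log2 length, limma adjusted p = 0.541).

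The first chromosome 13 window had the fewest regions in KO relative to WT, 6 in KO 67 and 8 in KO 73 against 14 in each WT library. Its widest region, chr13:22072515-22076443, covered 3691 bp (WT 66), 3877 bp (WT 74), 2212 bp (KO 67) and 3141 bp (KO 73), without overlap (log2 change -0.52 ± 0.19, limma adjusted p = 0.213). Next in width, chr13:22035959-22038255 spanned 2297 and 1994 bp in the WT lists against 1814 and 1404 bp in the KO lists, also without overlap (log2 change -0.42 ± 0.17, limma adjusted p = 0.259). The region chr13:21878443-21880858 overlapped between the genotypes, with WT lengths of 2170 and 1563 bp and KO lengths of 1719 and 1185 bp (change of -0.37 ± 0.25 in log2 length, limma adjusted p = 0.479). For chr13:21901560-21903004 the WT values were 1354 and 1400 bp and the KO values 628 and 1245 bp, so most of its log2 change of -0.64 ± 0.34 was in KO 67 (limma adjusted p = 0.374). One region was wider in both KO libraries: chr13:22065886-22067211 spanned 917 and 898 bp in the WT lists against 1282 and 1182 bp in the KO lists (log2 change 0.44 ± 0.17, limma adjusted p = 0.252).

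The 4 members found in both WT libraries and in neither KO library all lay in this first window. They were chr13:21808174-21808958 (785 and 501 bp in WT), chr13:21953965-21954597 (633 and 501 bp), chr13:22126927-22127525 (501 and 501 bp) and chr13:22132808-22133458 (630 and 501 bp). All 4 were narrow and weak. Their scores ran from 20.1 to 31.4 in WT 66 and from 20.9 to 22.3 in WT 74, near the smallest score of those lists (20.1 and 20.9). The 4 were 14.3% of the 28 members of both WT libraries, where the same class was 11.7% over the autosomes. No member was found in both KO libraries and neither WT library, where the autosomal share was 0.522% of the regions of both KO libraries. When each list was held to the length of the shortest, by score, the members present in both WT and neither KO numbered 0, and those present in both KO and neither WT numbered 3. That setting cuts the other lists to the 10502 regions of KO 67, the WT lists the most. Autosomal shares under it were not worked out, so these counts cannot be read as particular to the windows. Without KO 73, 9 members were in both WT libraries and not in KO 67. They were the 4 named above and 5 absent from KO 67 only, 17.9% of the 28 against 8.56% on the autosomes. Without WT 66, 7 members of WT 74 were in neither KO library. They were the same 4, 9.52% of the 42 members against 8.91% of autosomal regions, and 3 of WT 74 alone, 7.14% against 8.48%. Without KO 67, 4 members of KO 73 were in neither WT library. All 4 lay in KO 73 alone, 9.52% against 3.74%. Autosomal shares of the joint counts were not worked out.

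KO 67 lacked members that the other libraries held. Of the 28 members of both WT libraries, 5 were absent from KO 67 only, 17.9% against 8.56% on the autosomes, and 0 were absent from KO 73 only, against 1.91%. The widest of the 5 was chr13:22133981-22135940, of 1960 bp (WT 66), 1460 bp (WT 74) and 1499 bp (KO 73), with no region in KO 67. The other 4 were from 501 to 864 bp wide where found. Of the 42 members, 4 were found in KO 73 alone and 0 in KO 67 alone, and over the autosomes KO 73 alone also held more regions, 599 of 16000 (3.74%) against 32 (0.2%) in KO 67 alone. KO 67 had the shortest list, 10502 regions against 12497 in KO 73, 14078 in WT 66 and 14551 in WT 74. It also had the finest step of the deposited score, 0.325 against 0.874 in WT 66, 1.39 in WT 74 and 1.45 in KO 73. If a step is 1 tag, which is not stated, its depth was 4.46 times that of KO 73. The part of depth or list length in these absences was not tested.

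Across the windows, 19 of the 42 members, 45.2%, were found in all 4 libraries, against 59.5% of the autosomal regions. The 23 others were small where found, with a median of 633 bp (WT 66), 626 bp (WT 74), 564.5 bp (KO 67) and 628.5 bp (KO 73). Their scores ran from 20.1 to 97.8. The 3 highest values, 58.6, 66.7 and 97.8, all belong to chr13:22133981-22135940, whose score in WT 66 was at the 53.9 percentile of that list, and the next highest was 43.2. The number with a width of 501 bp in some library was 18 of 42, 42.9%, against 23% on the autosomes. Of the 42, 9 were in 1 library only, 21.4%, against 18.4% on the autosomes. Many members thus lay in the lower part of the lists: the median score of the members ranked at the 28.6 percentile of the WT 66 list, 21.1 of WT 74, 35.4 of KO 67 and 25.7 of KO 73.

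**Figure D3:**
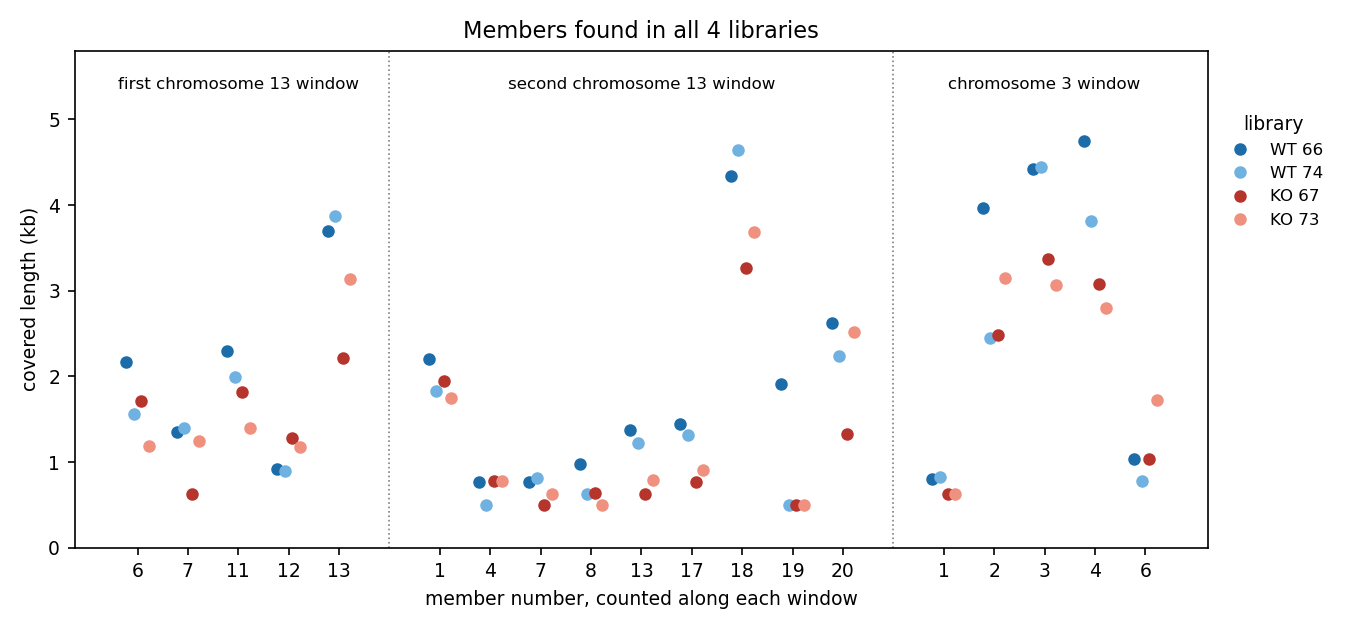
Covered length (kb) of the 19 members found in all 4 libraries, by library, with members numbered along each window. Both KO points lie below both WT points in 10 members and above them in 3, and the genotypes overlap in 6.

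Among the 19 shared members most KO values were lower. The mean log2 covered length was lower in KO in 16 of 19, 84.2%, against 80.2% of the 9520 autosomal regions found in all libraries. The median log2 change was -0.42, against -0.18 over the autosomes, and without KO 67 it was -0.28 over 24 members against -0.20. The KO values were both below the WT pair in 10 members, 52.6%, where the autosomal share was 47.6%, and both above it in 3 members, where it was 4.66%. No member passed limma at a Benjamini-Hochberg adjusted p of 0.05 over all shared regions of the genome, either as narrower (3.6% of the autosomal shared regions passed) or as wider (0.0105% passed). At an unadjusted p under 0.05 the limma count was 7 of 19 members, 6 of them narrower, against 19.5% of the autosomal regions. With library medians subtracted, the median change was -0.19 over the members and 0.05 over the autosomes.

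Set beside autosomal regions of like width, the broad members had a median log2 change near that of the autosomes, and the mid-width ones a lower median. For a WT mean of 3000 bp or more, the median log2 change was -0.46 over 5 members and -0.54 over 822 autosomal regions. From 2000 to below 3000 bp it was -0.40 over 3 members and -0.26 over 2068 regions. From 1000 to below 2000 bp it was -0.73 over 5 members, which ran from -0.97 to -0.37, and -0.16 over 5194 regions. Below 1000 bp it was -0.02 over 6 members and 0.02 over 1436 regions. The bins use the same WT values as the changes, no width can be below 501 bp, and the medians rest on few members and were not tested.

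**Figure D4:**
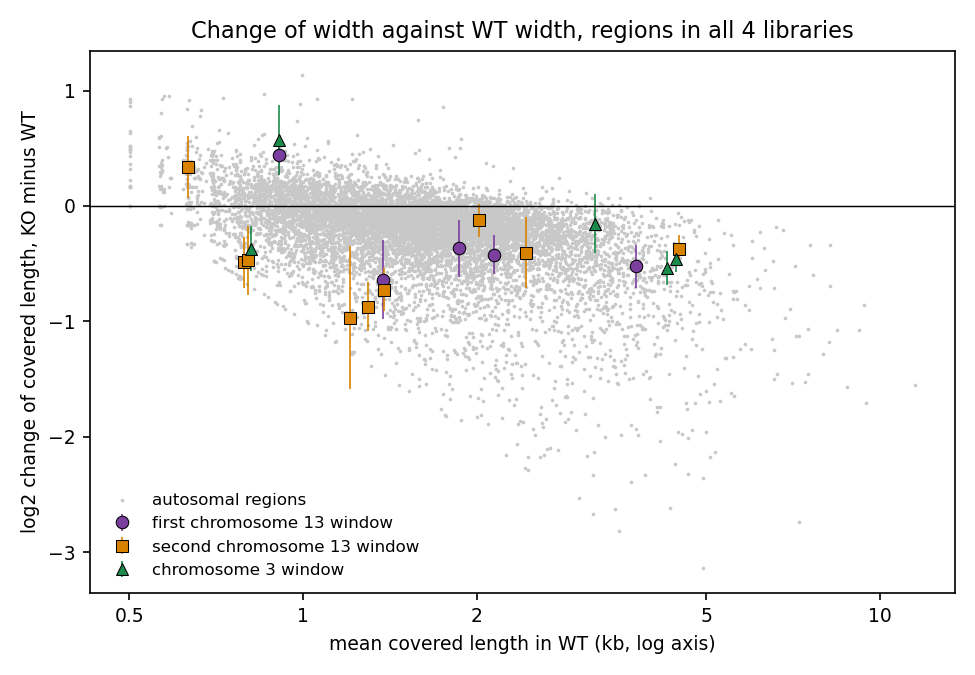
Log2 change of covered length (KO minus WT) against mean covered length in WT (kb, log axis) for regions found in all 4 libraries. Grey points are autosomal regions and coloured symbols are members by window, with SE bars from limma; the 5 members of 3 kb or more run from -0.54 to -0.15, and 3 members lie above 0.

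The edges of shared regions lay further in for most members, as for most autosomal regions. The left edge lay further in for 14 of 19 members (KO mean against WT mean), 73.7% against 72.97% on the autosomes, and the right edge for 16 of 19, 84.2% against 77.2%. The median inward distance was 111 bp at the left edge (87.5 bp on the autosomes) and 258 bp at the right edge (85.5 bp). Both edges lay further in for 14 members, 73.7%, against 58.6% of the autosomal shared regions, and both further out for 3 members, 15.8%, against 8.39%. The 3 were the members that were wider in both KO libraries.

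The bounds of the windows fell in sparse sequence on chromosome 13. The nearest union regions outside the first window lay 126.7 kb before it and 546.6 kb after it, and those outside the second 54.0 kb before and 50.7 kb after. On chromosome 3 a region with WT lengths of 2255 and 2804 bp and KO lengths of 2099 and 1892 bp lay 2.38 kb before the window, and the nearest region after it was 12.0 kb away. No member crossed a bound, so counting only regions wholly inside the windows gave the same values.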

How the data were processed

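H3K4me3 regions were examined in 4 libraries, 2 per genotype. Bowtie, HOMER and mm9 are named in the submitters' processing notes, without versions or settings. The deposited lists are BED tables called per library, and column 5 is the authors' score, whose scale is not stated. Scores were used only to describe, rank and filter regions within a list. Scores below 100 were whole multiples of 1 step per library, within 0.055. Positions are in base pairs of mm9, with starts counted from 1.

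Touching or overlapping rows were merged over the lists into union regions, and 1 bp of overlap sufficed for a library to count as covering one. For regions with all libraries present, log2 covered length was fitted with limma 3.58.1 (variance trend, no pseudocount, Benjamini-Hochberg over the whole table). The code was also run on simulated widths, whose set changes were larger than any among the members. That run does not show how often changes of the members' size would pass. Window sums were compared by 2-sided exact permutation tests. Regions named in full were the 3 widest per window, the 5 largest falls, the rises with both KO above both WT, and the members in both WT and neither KO library. The other named regions and the printed promoters were chosen after their values were seen. The members and lists were chosen with earlier results of these data known. The alternatives were a stricter score threshold, lists of one length, merging across 500 bp, other scalings of width and leaving out libraries. The absolute depth is unknown, and the targeted gene and protein sequences were not examined.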

Additional observations from a re-analysis of the deposited data

How the results depend on the processing

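KO minus WT covered length kept its negative sign in each window under every alternative run. With both libraries of each genotype kept, no member passed limma in any alternative fitted. Of the 11 to 29 members tested, 4 to 8 had an unadjusted p under 0.05, and from 12.5% to 20.9% of the autosomal regions. The member counts rest on unlike numbers tested. Lists of one length gave 8 of 14 members, 7 of them narrower, against 20.9% of the autosomal regions. Regions found in at least 2 libraries gave 7 of 29, 7 of them narrower, against 19.2%. Subtracting library medians gave 4 of 19, only 2 of them narrower, against 12.5%, and quantile normalization gave the same member counts. For regions found in at least 2 libraries, 0 of 11579 autosomal regions passed, so the 0 among members was fixed there. With 1 library left out, limma assumes that the lone library varies like the other genotype, so calls from those fits are not given. For the WT 74 and KO 73 pair no fit was possible. Other results moved. The median log2 change of shared members was -0.19 with library medians subtracted (0.05 over the autosomes) and -0.11 with quantile normalization (0.07 over the autosomes). With 1 library left out it ran from -0.50 (-0.23 over the autosomes) to -0.28 (-0.20). With only WT 74 and KO 73, a pair chosen after the data had been seen, it was -0.30 (-0.16 over the autosomes). Members in both WT and neither KO library numbered 0 both with the lowest 25% of scores dropped and with lists of one length, from 4 to 9 with 1 library left out, and 8 in that pair. Members in both KO and neither WT library numbered 3 with lists of one length, from 0 to 4 with 1 library left out, and 5 in that pair. Leaving out a library also adds autosomal regions to these classes. Their autosomal shares were not worked out under any of these settings, those that drop low scores or shorten the lists included. The percent of WT covered length kept in KO was 72.7%, against 74.3% over the autosomes. With 1 library left out it ran from 60.6% without WT 74 (64.7% over the autosomes) to 79.0% without KO 67 (75.7%). Without a WT library the base is the length covered in the other WT library alone, which is an unlike measure. The KO minus WT length of -7033 bp in the first chromosome 13 window was -3449 bp without the lowest 25% of scores, while that in the second went from -4283.5 to -5380 bp. In lists of one length the second window gave -1307.5 bp and the chromosome 3 window -1452.5 bp. The cause of these moves was not tested. No paired analysis was possible because the genotypes share no replicate number. The 2 libraries of each genotype and an unknown read depth limit what could be detected.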
